A study of Mus musculus with 36 samples.

Results

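The genes described here run the storage of glucose as glycogen and its passage through glycolysis in the liver. They were chosen by symbol as 9 genes: Gys2, Pygl, Ppp1r3b, Ppp1r3c, Gpi1, Pfkl, Pfkfb1, Fbp1 and Eno1. In the platform's probe annotation 6 of the 9 carried a probe, and Gpi1, Pfkfb1 and Eno1 were not analysed here. The 6 genes had 10 probes among the 45281 of the array, with 2 each for Gys2, Pygl, Ppp1r3b and Pfkl and 1 each for Ppp1r3c and Fbp1. All 10 were among the 17907 probes tested, and where a gene had a pair they are called its brighter and its dimmer probe.

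Liver takes up glucose after a meal, stores it as glycogen and returns it to the blood during a fast. Glycogen synthase (Gys2 in liver) lengthens the glucose chains, and glycogen phosphorylase (Pygl in liver) takes glucose phosphate off them. Ppp1r3b and Ppp1r3c encode targeting subunits that bring protein phosphatase 1 to glycogen, where it switches the synthase on and the phosphorylase off. Pfkl is the liver subunit of phosphofructokinase, which commits sugar phosphate to glycolysis, and Fbp1 is fructose bisphosphatase, which catalyses the opposite step in glucose synthesis.

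Livers came from male mice of 20 weeks of age, which the sample labels give as C57BL/6J and the series text as the C57BL/6JBomTac substrain. The diets, fed for 13 weeks, were low-fat (fat supplied 10% of the energy), high-fat (45%), and high-fat with lingonberry, blackcurrant, bilberry or acai as a freeze-dried addition of 20% by weight. Each of the 6 diets had 6 mice, and each mouse had 1 array. Per the labels, each of 6 chips carried 1 array of every diet, and a diet kept its place from chip to chip, so place on the chip and diet cannot be told apart.

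Levels are log2 values of background-corrected, normalized probe intensity, and a difference of 1 is a doubling on that scale. The offset of 16 used there makes differences of dim probes smaller. Median raw intensity was 81.2 to 102.9 per array and 14240 to 15670 probes were detected per array. All 6 hepatocyte markers were detected on all 36 arrays. Transcripts of pancreatic acinar cells were raised on some arrays, with a mean level over 9 markers of up to 9.86 in lingonberry, 9.39 in acai, 8.62 in bilberry, 8.08 in blackcurrant and 7.91 in low-fat, against at most 6.10 in high-fat. Skeletal muscle transcripts stood apart on 3 arrays, with a mean over 6 markers of 7.56 in lingonberry mouse 2, 6.78 in low-fat mouse 4 and 5.75 in lingonberry mouse 1, against at most 4.89 on the others. Of the 10 probes, 9 were detected on all 36 arrays, and the dimmer Pfkl probe on 18.

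Promoter windows, from 250 bases before to 50 after the gene's start in RefSeq on GRCm38.p6, were found for 4 of the 6 genes with probes (Pygl, Ppp1r3c, Pfkl and Fbp1). Shown are Pygl, the gene called between diets, and Ppp1r3c, a targeting subunit whose mean was lowest in bilberry but which was not called in the main fit. The window of Pygl is chr12:70227634-70227933 and that of Ppp1r3c is chr19:36736555-36736854, both on the minus strand. Each is printed 5′ to 3′ on the gene's strand, with capitals for the match to a motif.
Pygl: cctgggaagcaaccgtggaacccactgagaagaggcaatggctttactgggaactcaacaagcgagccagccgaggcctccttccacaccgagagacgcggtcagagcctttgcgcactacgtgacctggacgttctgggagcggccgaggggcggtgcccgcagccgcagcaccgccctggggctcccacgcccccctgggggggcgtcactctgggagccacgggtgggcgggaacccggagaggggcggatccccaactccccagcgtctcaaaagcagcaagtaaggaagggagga
Ppp1r3c: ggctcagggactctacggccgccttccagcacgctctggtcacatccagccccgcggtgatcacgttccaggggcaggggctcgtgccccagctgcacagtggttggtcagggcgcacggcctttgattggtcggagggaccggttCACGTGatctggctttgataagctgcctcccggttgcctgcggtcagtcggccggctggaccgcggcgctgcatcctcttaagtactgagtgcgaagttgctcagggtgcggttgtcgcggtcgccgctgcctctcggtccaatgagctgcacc
Both windows are rich in G and C, at 67.0% in Pygl and 65.3% in Ppp1r3c, against a median of 52.7% over all 32851 windows. The motifs searched on both strands were CACGTG (an E-box), GTAAACA (forkhead), TGACGTCA (the cAMP response element) and TATAAA (the TATA box). Ppp1r3c held 1 CACGTG, which starts at base -104 from the gene's start. CACGTG occurs in 7.15% of all windows, GTAAACA in 3.65%, TGACGTCA in 1.79% and TATAAA in 13.62%. The windows of Pygl, Pfkl and Fbp1 held no match to these 4 motifs.

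Pygl was the member with called differences between diets. It was lower in all 5 diets with 45% fat than in the low-fat diet, on all 6 chips and at both probes. The difference passed the test for blackcurrant, in which Pygl fell to 0.694 of the low-fat level at the brighter probe. No probe of Gys2, Ppp1r3b, Ppp1r3c, Pfkl or Fbp1 was called in any of the 15 pairwise comparisons or in the test across diets, although Ppp1r3b passed it for bilberry against high-fat once the chip was part of the fit.

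At the brighter Pygl probe the 6 low-fat mice had a lowest level of 12.28, a median of 12.44 and a highest of 12.53. The 6 blackcurrant mice had 11.30, 11.97 and 12.23. Every blackcurrant mouse lay below every low-fat mouse. The dimmer probe gave 10.45, 10.65 and 10.78 in low-fat, and 9.55, 10.23 and 10.35 in blackcurrant, again with no overlap. Blackcurrant minus low-fat was -0.53 ± 0.11 (SE, 95% interval -0.75 to -0.31, n = 6 and 6, limma adjusted p = 0.00445) at the brighter probe. At the dimmer probe it was -0.51 ± 0.13 (95% interval -0.78 to -0.25, limma adjusted p = 0.0268). Of all probes tested, 2.31% were called in this comparison, against 2 of the 10 member probes, both of Pygl.

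The fall was seen within each chip. Differences between the 2 arrays of the same chip ran from -1.19 to -0.29 at the brighter probe and from -1.23 to -0.28 at the dimmer one. With the chip as a block the limma adjusted p was 0.00173 at the brighter probe. Blackcurrant mouse 4 had the lowest Pygl of the 6 at both probes, and without it the difference was -0.41 (limma adjusted p = 0.0172) at the brighter probe and -0.40 (adjusted p = 0.103) at the dimmer one. The dimmer probe also lost its call without blackcurrant mouse 2 or low-fat mouse 1, 2, 4 or 5 (adjusted p = 0.0508 to 0.0667), without chip 2 (0.116) or chip 5 (0.0774), and with all probes tested (0.0563). Both probes lost it without chip 4 (0.0606 and 0.238). When the fit held only the arrays of these 2 diets, neither probe passed (adjusted p = 0.096 and 0.0968). The mean of the 6 hepatocyte markers was 11.10 to 11.60 in low-fat (median 11.39) and 10.90 to 11.36 in blackcurrant (median 11.22), and the mean of the 5 stellate cell markers was 7.10 to 7.42 in low-fat (median 7.17) and 6.85 to 7.11 in blackcurrant (median 6.996). Of those 5 markers 3 were detected on all 36 arrays. The part of either marker list in the result was not tested. Low-fat mouse 4, with the raised muscle transcripts, had the highest dimmer-probe level of the low-fat mice (10.78), and without it the brighter probe gave -0.52 (limma adjusted p = 0.0127) and the dimmer one -0.48 (0.0667). In bulk liver, fewer cells of a type and less RNA per cell cannot be told apart.

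**Figure D1:**
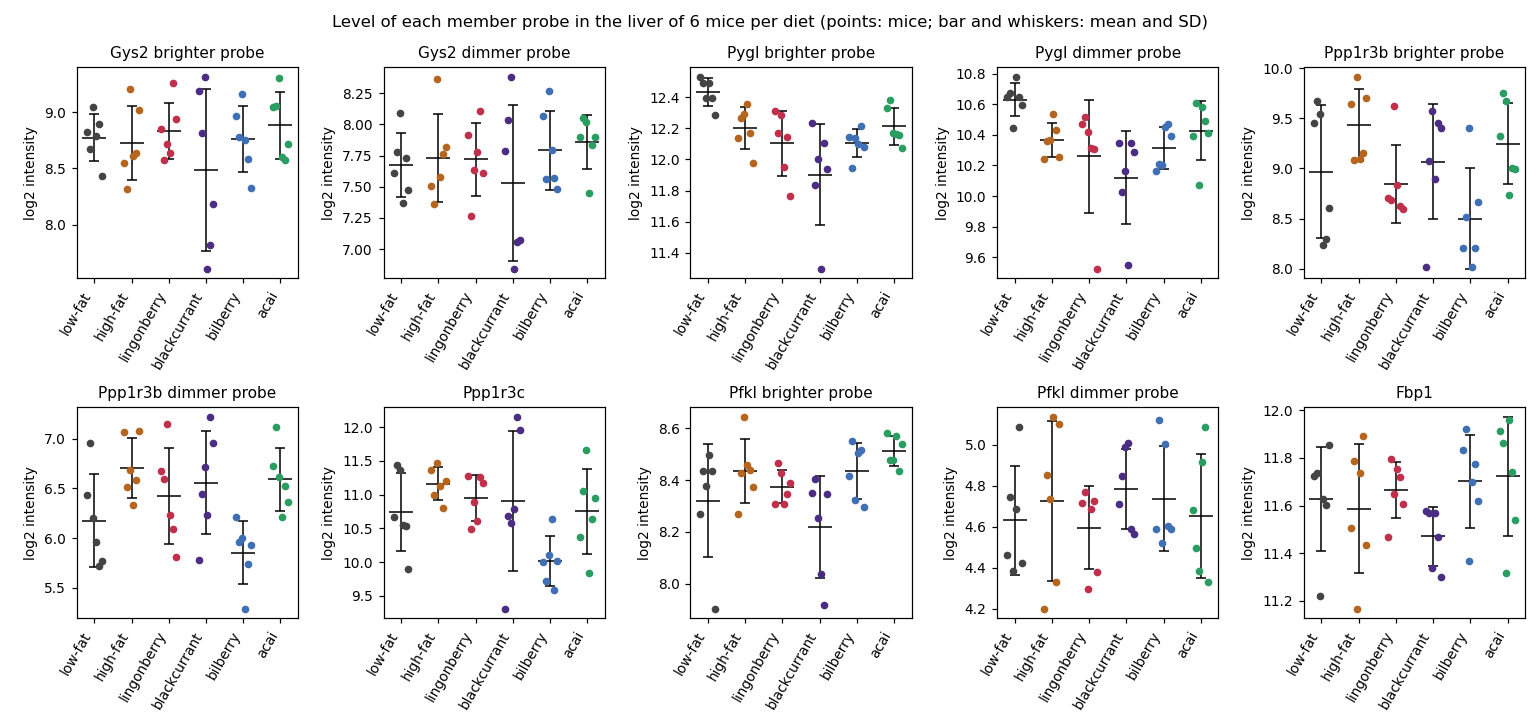
Level of each of the 10 member probes (log2 intensity) in the 6 diets, with a point per mouse and the mean and SD (bar and whiskers). Low-fat mice stand highest at both Pygl probes, and at Ppp1r3c the bilberry mice sit between 9.58 and 10.64, all below the high-fat mice.

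The other diets with 45% fat took a middle place at Pygl. High-fat mice had a brighter-probe level of 11.98 to 12.35 (median 12.22), lingonberry mice 11.76 to 12.31 (median 12.16), bilberry mice 11.95 to 12.21 (median 12.12) and acai mice 12.07 to 12.38 (median 12.17). The order of the means from the highest was low-fat, acai, high-fat, lingonberry, bilberry and blackcurrant, and no neighbours in that order were called different. High-fat minus low-fat was -0.23 (95% interval -0.45 to -0.01, adjusted p = 0.298), lingonberry minus low-fat -0.33 (-0.55 to -0.11, adjusted p = 0.0995), bilberry minus low-fat -0.33 (-0.55 to -0.11, adjusted p = 0.144) and acai minus low-fat -0.22 (-0.44 to 0.00, adjusted p = 0.268). None of these 4 passed the test, and bilberry alone among them did not overlap low-fat at this probe. Lingonberry and bilberry did pass at this probe when blackcurrant mouse 4 was left out of the fit (adjusted p = 0.0316 and 0.0492).

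A further comparison, chosen after these values were seen, set the mean of the 5 diets with 45% fat against low-fat. All 30 mice on those diets had less Pygl than the low-fat median at both probes, and 24 of 30 at the brighter and 22 of 30 at the dimmer probe lay below every low-fat mouse. Pygl fell by 0.33 (SE 0.08, 95% interval -0.50 to -0.15, limma adjusted p = 0.0149) at the brighter probe. At the dimmer probe it fell by 0.33 (SE 0.10, 95% interval -0.54 to -0.13, limma adjusted p = 0.0428). Of all probes 5.31% were called in this comparison, and the 2 Pygl probes were the only ones of the 10 members. The brighter probe passed in 39 of the 40 fits run, the exception being the fit without low-fat mouse 1 (adjusted p = 0.0561). The dimmer probe passed in 26 of 40. It missed the threshold, at adjusted p up to 0.13, with all probes tested and without low-fat mouse 1, 2, 4, 5 or 6, high-fat mouse 2 or 6, bilberry mouse 1, 2 or 3, acai mouse 1 or 6, or blackcurrant mouse 2.

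Against the high-fat diet, no berry diet passed the test at Pygl. Blackcurrant minus high-fat was -0.30 (95% interval -0.52 to -0.08, adjusted p = 0.34) at the brighter and -0.24 (-0.51 to 0.02, adjusted p = 0.633) at the dimmer probe. For lingonberry, bilberry and acai the brighter probe differed from high-fat by -0.10, -0.10 and 0.01, with 95% intervals that lay between -0.32 and 0.23. Among the diets as a whole, Pygl's brighter probe was the 1 member probe called by the limma F test (adjusted p = 0.0239), against 8.03% of all probes. With the chip as a block, both Ppp1r3b probes joined it (F test, adjusted p = 0.0233 and 0.0274), and the share of all probes called was 13.1%.

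**Figure D2:**
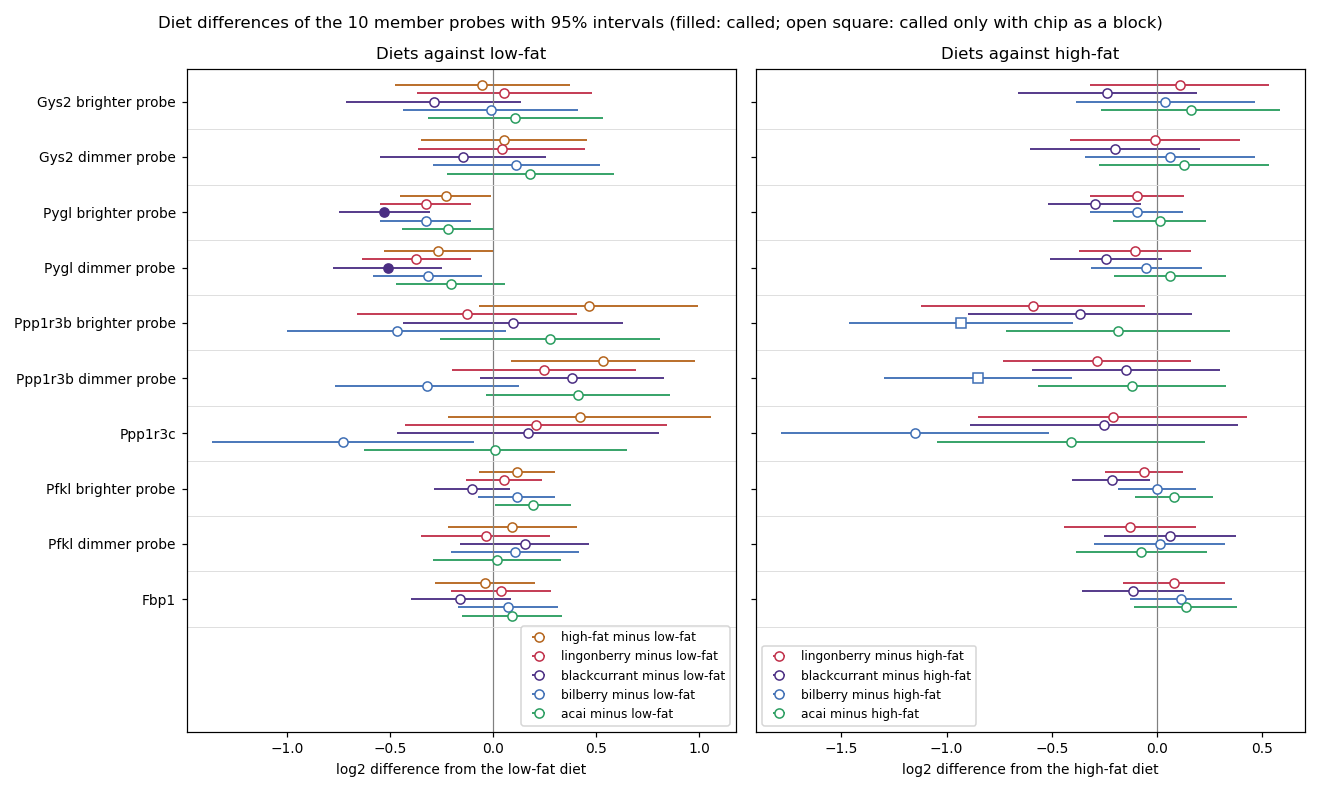
Log2 difference of each member probe from the low-fat diet (left) and from the high-fat diet (right), with 95% intervals from limma on 36 arrays. Filled circles were called and open squares were called only with the chip as a block. Both Pygl probes lie left of 0 in all 5 diets, and Ppp1r3b and Ppp1r3c lie farthest left in bilberry against high-fat.

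Gys2, the synthase that opposes Pygl, showed no called difference. Its brighter probe ran from 8.43 to 9.05 in low-fat (median 8.80), from 8.32 to 9.21 in high-fat (median 8.62) and from 8.57 to 9.26 in lingonberry (median 8.79). Levels were 8.33 to 9.17 in bilberry (median 8.77), 8.58 to 9.31 in acai (median 8.88) and 7.61 to 9.31 in blackcurrant (median 8.50). Blackcurrant stood out by its spread, with an SD of 0.72 against 0.21 to 0.33 in the other diets. Blackcurrant mice 4, 5 and 6 had 7.61, 7.82 and 8.18, below all mice of the other 5 diets, while mice 1, 2 and 3 had 9.19, 8.81 and 9.31. The dimmer probe showed the same mice low, at 6.84, 7.06 and 7.08. Over the diets, differences of the brighter probe from low-fat ran from -0.29 (blackcurrant, 95% interval -0.71 to 0.14) to 0.11 (acai, -0.32 to 0.53), and high-fat minus low-fat was -0.05 (-0.48 to 0.37).

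The targeting subunit Ppp1r3b was lowest in bilberry. At its brighter probe the high-fat mice had 9.09, 9.40 and 9.91 as lowest, median and highest level, and the bilberry mice 8.01, 8.36 and 9.40. At the dimmer probe they had 6.33, 6.63 and 7.07, and 5.29, 5.95 and 6.22. The diets overlapped in 1 bilberry mouse at the brighter probe and not at all at the dimmer one, and bilberry was lower on all 6 chips at both. Bilberry minus high-fat was -0.93 ± 0.26 (SE, 95% interval -1.47 to -0.40, limma adjusted p = 0.119) at the brighter probe and -0.85 ± 0.22 (95% interval -1.30 to -0.41, adjusted p = 0.0766) at the dimmer one.

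With the chip as a block in the limma fit, both Ppp1r3b probes were called, with adjusted p = 0.0226 and 0.0437, and the brighter one was called without the block when bilberry mouse 3 was left out (adjusted p = 0.0422). Array weights also called both (adjusted p = 0.0433 and 0.0394), and the dimmer one passed with the arrays of these 2 diets only (adjusted p = 0.0162) and without blackcurrant mouse 1 (adjusted p = 0.0483). Without the block 0.38% of all probes were called in bilberry against high-fat and 0 of the 10 members, while 3 members lay under an unadjusted p of 0.05 as did 7.83% of all probes. With the block 0.609% of all probes were called. The pancreatic marker mean was up to 8.62 on 1 bilberry array, and with it as a covariate the differences were -0.91 and -0.84. The brighter probe differed between chips (limma F test, adjusted p = 0.0105), and chip means after removal of the diet means ran from -0.37 to 0.61. The dimmer probe's ran from -0.34 to 0.21 (adjusted p = 0.247).

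In the other diets Ppp1r3b had no call. High-fat minus low-fat was 0.46 (95% interval -0.07 to 0.997, adjusted p = 0.413) at the brighter and 0.53 (0.09 to 0.98, adjusted p = 0.207) at the dimmer probe. Low-fat mice ranged from 8.24 to 9.67 at the brighter probe, with 3 at 9.45 or above and 3 at 8.60 or below. Lingonberry minus high-fat was -0.59 (-1.12 to -0.06, adjusted p = 0.29) at the brighter probe and -0.28 (-0.73 to 0.16, adjusted p = 0.617) at the dimmer one, and it was lower on all 6 chips at the brighter probe only. Acai minus bilberry was 0.75 and 0.73, higher on all 6 chips at both probes, with adjusted p = 0.221 and 0.124, and the dimmer probe passed when only the arrays of these 2 diets were fitted (adjusted p = 0.0339).

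Ppp1r3c, whose promoter window with its CACGTG is printed above, is the targeting subunit also known as protein targeting to glycogen. High-fat mice had 10.80, 11.17 and 11.47 as lowest, median and highest level, and bilberry mice 9.58, 10.01 and 10.64. Every bilberry mouse lay below every high-fat mouse, and the difference on the 6 chips ran from -1.36 to -0.49. The mean difference was -1.15 ± 0.31 (SE, 95% interval -1.79 to -0.51, limma adjusted p = 0.106), or 0.451 of the high-fat level, and with the chip as a block the adjusted p was 0.1. It missed the threshold in the fit of all 36 arrays and passed it when only the arrays of these 2 diets were fitted (adjusted p = 0.00277) or when blackcurrant mouse 1 was left out (adjusted p = 0.0383).

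Ppp1r3c was spread most widely in blackcurrant, and the fit of all 36 arrays uses a common estimate of the spread for the 6 diets. Blackcurrant mice ran from 9.31 (mouse 1) to 12.15 (mouse 5), with an SD of 1.04, against 0.24 in high-fat and 0.37 in bilberry. Low-fat mice had 9.89 to 11.44 (median 10.61), lingonberry mice 10.49 to 11.27 (median 11.03) and acai mice 9.84 to 11.67 (median 10.79). High-fat minus low-fat was 0.42 (95% interval -0.22 to 1.06, adjusted p = 0.571), bilberry minus blackcurrant -0.90 (adjusted p = 0.28, and -1.22 with adjusted p = 0.0267 without blackcurrant mouse 1), bilberry minus low-fat -0.73 (-1.37 to -0.09, adjusted p = 0.32) and bilberry minus lingonberry -0.94 (-1.57 to -0.30, adjusted p = 0.251, and 0.0254 with the arrays of these 2 diets only). Bilberry thus had the lowest mean of the 6 diets at Ppp1r3c and at both Ppp1r3b probes, which are probes of different genes on the same arrays.

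**Figure D3:**
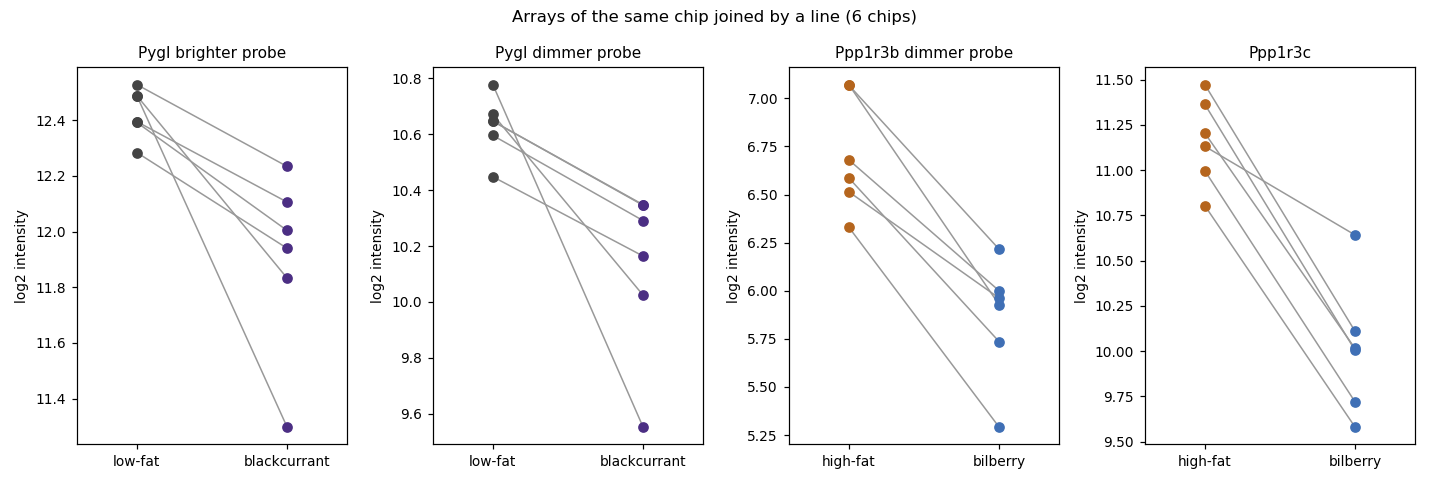
Log2 level of both Pygl probes in low-fat and blackcurrant mice and of the dimmer Ppp1r3b probe and Ppp1r3c in high-fat and bilberry mice. Lines join the arrays of the same chip. All 6 lines fall in each of the 4 panels.

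Pfkl, on the glycolytic side, varied little at its brighter probe. Levels were 7.90 to 8.50 in low-fat (median 8.41), 8.27 to 8.64 in high-fat (median 8.43), 8.31 to 8.47 in lingonberry (median 8.37), 7.92 to 8.41 in blackcurrant (median 8.30), 8.30 to 8.55 in bilberry (median 8.46) and 8.44 to 8.58 in acai (median 8.51). All acai mice lay above all blackcurrant mice. Acai minus blackcurrant was 0.30 ± 0.09 (SE, 95% interval 0.11 to 0.48, limma adjusted p = 0.0938), higher on all 6 chips. It passed the threshold with another background correction (adjusted p = 0.0491), with none (adjusted p = 0.0427) or without low-fat mouse 6 (adjusted p = 0.0485). Blackcurrant minus high-fat was -0.22 (-0.40 to -0.03, adjusted p = 0.461). The dimmer probe, at 4.20 to 5.14 over the 36 arrays and detected on 2 to 4 arrays per diet, did not follow it (r = 0.15 between the 2 probes over 36 arrays), and no direction is drawn from it.

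Fbp1, on the side of glucose synthesis, had similar levels in most diets. They were 11.22 to 11.85 in low-fat (median 11.68), 11.17 to 11.89 in high-fat (median 11.62), 11.47 to 11.80 in lingonberry (median 11.68), 11.30 to 11.58 in blackcurrant (median 11.52), 11.37 to 11.92 in bilberry (median 11.74) and 11.32 to 11.96 in acai (median 11.80). High-fat minus low-fat was -0.04 (95% interval -0.28 to 0.20, adjusted p = 0.919). The widest difference was acai minus blackcurrant, at 0.25 (0.01 to 0.49, adjusted p = 0.358). Fbp1 differed between chips (limma F test, adjusted p = 0.00539), with chip means from -0.29 to 0.15 once diet means were removed. Of all probes 19% were called between chips, and the members called there were Fbp1 and the brighter Ppp1r3b probe.

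The counts in the remaining comparisons were all 0 of 10 in limma, read beside the share of all probes called. In high-fat minus low-fat 3.31% of probes were called. There 3 of the 10 members lay under an unadjusted p of 0.05, namely both Pygl probes and the dimmer Ppp1r3b probe, as did 15.4% of all probes. Against high-fat, 2.25% were called for lingonberry, 0.134% for blackcurrant and 0.0447% for acai. Under the unadjusted 0.05 were 1, 2 and 0 members in that order, beside 14.1%, 8.67% and 6.06% of all probes. Against low-fat, 3.28% were called for lingonberry, 1.61% for bilberry and 6.47% for acai. Under the unadjusted 0.05 were 2, 3 and 1 members, beside 14.4%, 11.7% and 19.3% of all probes.

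Between berry diets the shares of all probes called were 0.771% for acai minus bilberry, 1.76% for acai minus blackcurrant, 3.35% for acai minus lingonberry, 0.212% for bilberry minus blackcurrant, 0.246% for bilberry minus lingonberry and 0.983% for blackcurrant minus lingonberry. The members under an unadjusted p of 0.05 numbered 3, 4, 0, 4, 2 and 0 in the same order, beside 10.2%, 12.9%, 15.8%, 9.35%, 8.79% and 11.5% of all probes. Of the 10 member probes 8 were higher in acai than in blackcurrant, with a median difference of 0.27 against -0.01 over all probes tested. In acai minus bilberry and acai minus lingonberry 9 were higher, with medians of 0.11 and 0.12, against -0.01 over all probes in both. In bilberry minus blackcurrant, bilberry minus lingonberry and blackcurrant minus lingonberry 6, 5 and 3 were higher. The share of all probes that were higher was not computed. In blackcurrant minus high-fat 1 of the 10 was higher, with a median of -0.23 against 0.00 over all probes. Comparisons with the same diet share its arrays and the 10 probes belong to 6 genes, so these counts are not independent.

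The members differed in their spread among mice of the same diet. The within-diet SD was 0.59 for Ppp1r3c, 0.49 and 0.41 for the brighter and dimmer Ppp1r3b probes, and 0.39 and 0.37 for those of Gys2. These exceeded the SD of 98.8%, 97.9%, 95.9%, 94.9% and 93.5% of all tested probes. Pygl had 0.18 and 0.23, Fbp1 0.20, and the brighter and dimmer Pfkl probes 0.14 and 0.28, against a median of 0.23 over all tested probes. The SD of Gys2 was largest in blackcurrant, at 0.72 and 0.62 for the brighter and dimmer probes. In the other diets it was 0.21 to 0.33 and 0.215 to 0.353. The 2 probes of a gene followed each other over the 36 arrays at r = 0.871 in Gys2, 0.851 in Pygl and 0.812 in Ppp1r3b.

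Among mice of the same diet, Ppp1r3c varied together with Ppp1r3b and opposite to Fbp1. These relations were computed on deviations from the diet means over 36 mice for all 15 pairs of the 6 genes, with the brighter probe of each. The permutation test used 100000 resamples within diets, two-sided. Ppp1r3b and Ppp1r3c had Pearson r = 0.554 (permutation p = 0.00248, adjusted p = 0.0186) and Spearman rho = 0.484 (permutation p = 0.00632, adjusted p = 0.0474). Pearson r was 0.473 without the 2 mice farthest from the median of the x measure (Ppp1r3b), and 0.584 with chip means removed as well (permutation adjusted p = 0.0253). It was positive within 4 of the 6 diets, from -0.204 to 0.839.

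Ppp1r3c and Fbp1 had Pearson r = -0.535 (permutation p = 0.00025, adjusted p = 0.00375) and Spearman rho = -0.61 (permutation p = 0.00013, adjusted p = 0.00195). The correlation was negative within all 6 diets, from -0.919 to -0.364. Without the 2 mice farthest from the median of Ppp1r3c it was -0.625, and with chip means removed -0.6 (permutation adjusted p = 0.00075). Ppp1r3b and Fbp1 had Pearson r = -0.473 (permutation p = 0.00438, adjusted p = 0.0219) and Spearman rho = -0.424 (permutation p = 0.0161, adjusted p = 0.0807), negative within all 6 diets. Without the 2 farthest mice r was -0.412. That relation did not hold once chip means were removed (r = -0.12, permutation adjusted p = 0.812), and both of these probes differed between chips. No other pair passed on these deviations. Gys2 with Pfkl missed the threshold (r = 0.447, permutation p = 0.0267, adjusted p = 0.0802; rho = 0.346, permutation p = 0.0732, adjusted p = 0.252; 0.418 without the 2 farthest mice). It passed with chip means removed as well (r = 0.511, permutation adjusted p = 0.0377) and with diet means kept (r = 0.5, adjusted p = 0.0126).

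**Figure D4:**
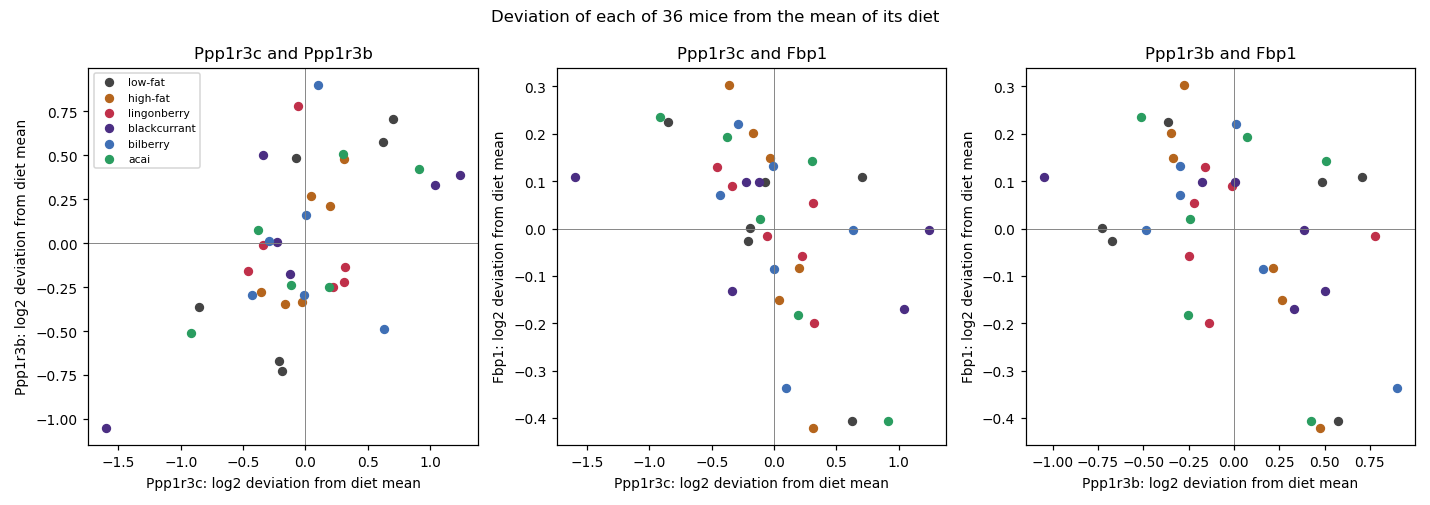
Deviation of each of 36 mice from the mean of its diet (log2) for Ppp1r3c with Ppp1r3b (left), Ppp1r3c with Fbp1 (middle) and Ppp1r3b with Fbp1 (right), coloured by diet. Mice with more Ppp1r3c tended to have more Ppp1r3b (r = 0.554) and less Fbp1 (r = -0.535).

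Outside the members, the genes with the most similar pattern over the 36 arrays were found by Pearson r among 15045 probes with a symbol. For Gys2 they were Dcaf10 (0.809), Tmprss6 (0.792) and Rbpms2 (0.789). For Pygl they were Mapk9 (0.787), Acsl5 (0.785) and Ugp2 (0.777), of which Ugp2 makes the UDP-glucose that glycogen synthase uses and Acsl5 activates fatty acids. Tsc22d3, a gene known to respond to glucocorticoids, was the nearest to Ppp1r3b (0.786) and the second nearest to Ppp1r3c (0.696). Ppp1r3b was also near Trp53inp1 (0.774) and Ptp4a1 (0.762), and Ppp1r3c near Vasn (0.734) and Arhgef3 (0.663). For Pfkl they were Mettl9 (0.707), Suox (0.694) and Adh1 (0.693), and for Fbp1 COX2 (0.765), Sparc (0.757) and H2-Q8 (0.744). Spearman rho of these pairs ran more widely, from 0.451 (Pfkl with Adh1) to 0.77 (Ppp1r3b with Ptp4a1). All these values share arrays, diets and chips and are a description with no test.

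The rest of the pathway was read from 6 lists of 70 genes, of which 49 were tested by 1 probe each, the one with the highest mean. They covered glycogen synthesis, glycogen breakdown, targeting and phosphatase subunits, glycolysis, gluconeogenesis and the carbohydrate response. The lists were chosen with earlier results of these data known, so a share of list genes called is a description and no test of the pathway. The share of all probes beside it also covers dim probes. In high-fat minus low-fat, 3 of the 49 were called (6.12%, against 3.31% of all probes), with 1 rise and 2 falls, and the median difference was 0.00 over the lists and over all probes. G6pc, the last enzyme of glucose release, was 10.99 to 12.13 in low-fat and 9.15 to 10.40 in high-fat. Those diets did not overlap, and G6pc fell by 1.61 (SE 0.22, limma adjusted p = 1.04e-05). Ppp1r3g, another targeting subunit of protein phosphatase 1, fell by 1.37 (SE 0.40, limma adjusted p = 0.0482, and 0.0511 with the chip as a block), from 6.35 to 7.26 in low-fat to 4.47 to 6.76 in high-fat. Its difference was -0.81 with another background correction (limma adjusted p = 0.0768) and -0.64 with none (0.0963), and neither passed. It also missed the threshold with trended variance (0.0828) and with all probes tested (0.148). Nhlrc1, which encodes the ubiquitin ligase malin, rose by 0.57 (adjusted p = 0.0483).

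In blackcurrant minus low-fat, where Pygl fell, 5 of the 49 list genes fell and none rose (10.2% called, against 2.31% of all probes), and the list median was -0.08 against 0.00 over all probes. The count of list genes was 2 with all probes tested and 2 with the arrays of these 2 diets only. In that second fit Ugp2 (limma adjusted p = 0.254), Gapdh (0.097) and G6pc (0.0846) missed the threshold. With only the probes detected on all 36 arrays the count was 4, and 467 of those 10633 probes were called. Pklr, the liver pyruvate kinase, fell by 0.997 (SE 0.21, limma adjusted p = 0.00424), from 6.38 to 6.94 in low-fat to 4.86 to 6.11 in blackcurrant. Those diets did not overlap. Ppp1r3g fell by 1.71 (adjusted p = 0.0145), G6pc by 0.91 (adjusted p = 0.0214), Ugp2 by 0.47 (adjusted p = 0.0373) and Gapdh, a glycolytic enzyme often used as a reference gene, by 0.40 (adjusted p = 0.0159).

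Lingonberry minus high-fat had 3 of 49 called (6.12%, against 2.25% of all probes), with G6pc up by 1.47 (limma adjusted p = 0.000155), Txnip, an inhibitor of thioredoxin that responds to glucose, up by 0.79 (adjusted p = 0.00355) and Nhlrc1 down at -0.61 (adjusted p = 0.0432). Bilberry minus high-fat, in which Ppp1r3b and Ppp1r3c had lower means without a call in this fit, had 1 of 49 (2.04%, against 0.38% of all probes). It was G6pc, which rose by 1.16 (adjusted p = 0.0107). Blackcurrant and acai minus high-fat had 0 of 49 by limma. Under an unadjusted p of 0.05 were 9 and 6 of the 49, larger shares than the 8.67% and 6.06% of all probes. Against low-fat, lingonberry had 1 call, Pklr, which fell by 0.87 (adjusted p = 0.0101), and bilberry had 1, Pck1, the enzyme that commits carbon to glucose synthesis, which fell by 1.04 (adjusted p = 0.0102). Each is 2.04% of the list genes, against 3.28% and 1.61% of all probes.

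Acai minus low-fat had 4 of 49 (8.16%, against 6.47% of all probes). Mlxipl, the carbohydrate response factor itself, fell by 0.94 (limma adjusted p = 1.62e-05) and G6pc by 0.79 (adjusted p = 0.0259). Nhlrc1 rose by 0.58 (adjusted p = 0.0283) and Pfkfb4, an enzyme that regulates phosphofructokinase, by 0.58 (adjusted p = 0.049). The Pfkfb4 probe was dim, with a mean of 4.69 in low-fat and 5.27 in acai. Its rise was 0.26 with another background correction (limma adjusted p = 0.0642) and 0.19 with none (0.0662), and neither passed. Acai minus blackcurrant had 3 of 49 (6.12%, against 1.76% of all probes), all rises, in Ppp1r3g (1.81, adjusted p = 0.00922), Pklr (0.80, adjusted p = 0.0314) and Gapdh (0.40, adjusted p = 0.0181). Acai minus lingonberry had 2 calls (4.08%, against 3.35%), with Nhlrc1 up by 0.61 (adjusted p = 0.031) and Mlxipl at -0.50 (adjusted p = 0.0374). The other 4 pairs of berry diets had 0 of 49 by limma. Under an unadjusted p of 0.05 were 8 of the 49 for acai minus bilberry, 4 for bilberry minus blackcurrant, 5 for bilberry minus lingonberry and 10 for blackcurrant minus lingonberry. The shares of all probes were 10.2%, 9.35%, 8.79% and 11.5%. The share of the list genes was smaller than that of all probes only in bilberry minus blackcurrant. With the chip as a block, calls numbered 2 in acai minus bilberry, 1 in blackcurrant minus lingonberry, 6 in acai minus blackcurrant and 7 in acai minus lingonberry. The shares of all probes called in that fit were 1.33%, 1.85%, 3.19% and 5.25% in the same order, each higher than without the block.

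Of these 23 pathway calls 6 passed in all 42 fits that left out 1 array or 1 chip. They were G6pc in high-fat minus low-fat and in lingonberry and bilberry minus high-fat, Txnip in lingonberry minus high-fat, Pklr in blackcurrant minus low-fat and Mlxipl in acai minus low-fat. Of these, G6pc in bilberry minus high-fat missed the threshold with all probes tested (adjusted p = 0.0518), and the other 5 passed in every setting that tested them. Some calls were lost in the 42 fits only by leaving out a chip. They were Pklr in lingonberry minus low-fat (chip 2 or 6) and Pck1 in bilberry minus low-fat (chip 1, 2 or 4). Ppp1r3g was lost likewise in blackcurrant minus low-fat and in acai minus blackcurrant (chip 4 or 5). Its call in blackcurrant minus low-fat also missed the threshold with all probes tested (limma adjusted p = 0.0521). In blackcurrant minus low-fat Gapdh was lost without blackcurrant mouse 4, G6pc without blackcurrant mouse 5 or low-fat mouse 1 or 2, and Ugp2 without blackcurrant mouse 2, 4 or 5 or low-fat mouse 1, 2, 3, 4 or 5, each also without some chips (adjusted p up to 0.126, 0.141 and 0.283). In acai minus low-fat G6pc was lost without acai mouse 3 or low-fat mouse 1 or 2 (up to 0.0933), and Nhlrc1 without acai mouse 2 or 3 or low-fat mouse 1 or 4 (up to 0.12). In acai minus blackcurrant Gapdh was lost without blackcurrant mouse 4 or acai mouse 1 or 2 (up to 0.166), and Pklr without blackcurrant mouse 2 or 4 or acai mouse 1 or 2 (up to 0.202). The remaining 6 calls are given by the number of the 42 fits in which they passed. Nhlrc1 passed in 14 of the 42 fits for high-fat minus low-fat, in 27 for lingonberry minus high-fat and in 31 for acai minus lingonberry. Ppp1r3g in high-fat minus low-fat passed in 16, Pfkfb4 in acai minus low-fat in 15 and Mlxipl in acai minus lingonberry in 28. With the pancreatic mean as a covariate Nhlrc1 missed the threshold in high-fat minus low-fat (adjusted p = 0.0584) and in lingonberry minus high-fat (0.0687), as did Pfkfb4 in acai minus low-fat (0.053).

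**Figure D5:**
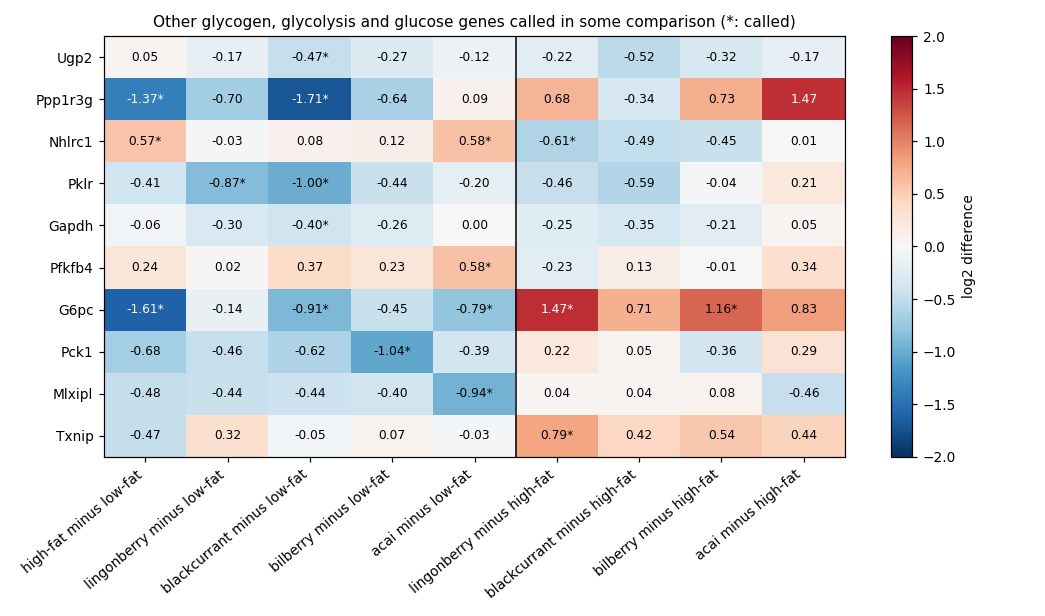
Log2 difference of the 10 pathway genes called in some comparison, against low-fat (left 5 columns) and high-fat (right 4 columns), with a star for a call. G6pc is below 0 in all 5 diets against low-fat and above 0 in all 4 berry diets against high-fat, and Pklr is below 0 in all 5 diets against low-fat.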

How the data were processed

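Liver RNA of 36 mice was measured on Illumina beadchips (MouseWG-6 v2.0). For every array and probe the authors deposited a raw intensity with its detection p-value. They also deposited processed log2 values, and the values computed here lay within 0.0501 of them. How the authors summarized and normalized these was not given in the sources used here. Replicates are separate mice per the series text.

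Intensities were corrected and quantile normalized with the neqc function (offset 16, limma version 3.58.1, R version 4.3.3). Probes detected at p below 0.05 on at least 6 of 36 arrays were tested (17907) with lmFit and eBayes on all arrays, a mean per diet, and Benjamini-Hochberg adjustment over all tested probes; a call is an adjusted p below 0.05. The number of arrays limits the precision. Symbols came from the platform annotation (34885 probes with 1 symbol, 18 with several, 10378 unnamed here), updated through RefSeq. List genes with several probes entered through the one with the highest mean, every member probe was named, and up to 6 called list genes with the smallest p could be named per comparison. Replicate numbers follow accession order. The chip was read from the array labels, and number n of every diet lay on chip n, so the chip block is also a block by number. Alternatives were other background corrections and filters, the deposited log2 values, array weights, trended variance, a pancreatic covariate, the chip as a block, 2 diets only, and leaving out arrays or chips. Correlations used Python 3.11.15 and scipy 1.17.1, and figures matplotlib 3.10.9. Tests were checked on simulated data. The members and lists were chosen with earlier results of these data known.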

Additional observations from a re-analysis of the deposited data

Results flagged for a closer look

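Among the 60 groups of 6 mice formed by 10 probes and 6 diets, 3 held a mouse set apart from the other 5 by Dixon's test, which chance does in about 1 group in 20. The lowest acai mouse at the dimmer Gys2 probe was mouse 4 at 7.45. The lowest lingonberry mouse at the dimmer Pygl probe was mouse 6 at 9.52. The highest lingonberry mouse at the brighter Ppp1r3b probe was mouse 3 at 9.62. The second probe of each gene did not pass Dixon's test for the same mouse. Lingonberry mouse 6 was still the lowest of its diet at the brighter Pygl probe (11.76), and lingonberry mouse 3 the highest at the dimmer Ppp1r3b probe (7.145). At the brighter Gys2 probe acai mouse 4 had 8.598, and mouse 5 was the lowest at 8.576. The acai mouse 4 array also had a pancreatic marker mean of 8.10, and its part in the value was not tested.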

How the results depend on the processing

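Among the 2-diet comparisons, the count of called member probes in high-fat minus low-fat, in lingonberry, blackcurrant and acai minus high-fat and in acai minus low-fat was 0 under all settings. Called in bilberry minus high-fat were 2 probes with array weights, with the chip as a block and with 2 diets only (0 to 2 on leaving out an array or chip). Of all 17907 probes 141, 109 and 110 were called in those 3 settings, against 68 in the main fit. In blackcurrant minus low-fat it was 1 with all probes tested and 0 with 2 diets only (0 to 2 on leaving out). The 6 berry pairs gave 1 with the offset of 50 or no background correction and 2 with 2 diets only (0 to 2). Across the 6 diets it was 2 with probes detected on all 36 arrays or array weights and 3 with the chip as a block (0 to 3). With the block 13.1% of all probes were called there, against 8.03% without it. Lingonberry and bilberry minus low-fat gave 0 to 1 on leaving out. The comparison of 5 diets against low-fat gave 1 with all probes tested and 0 to 2 on leaving out. The 18 pathway calls against low-fat and high-fat became 9 with all probes tested, 34 with the chip as a block and 9 to 21 on leaving out. With the block 0.123% to 10.2% of all probes were called in these comparisons, against 0.0447% to 6.47% without it. Of all 23 pathway calls, 13 missed the threshold with all probes tested (adjusted p = 0.0518 to 0.148). Testing all probes adjusts over 45281 probes, and the cause of the other shifts was not tested. Of 150 probe differences, 46 changed sign in some of 52 settings, none of them called, and the largest was 0.25. None of the 30 differences with an unadjusted p below 0.05 or a call in some setting did. Of 15 correlations, 3 pairs passed. With diet means kept and resamples over all 36 mice, 4 passed (Gys2 with Pfkl added). With chip means removed 3 passed, where Gys2 with Pfkl came in (permutation adjusted p = 0.0377) and Ppp1r3b with Fbp1 dropped out (0.812). Signs turned with chip means removed for Gys2 with Ppp1r3b (-0.367), Pygl with Ppp1r3b (-0.061), Pygl with Ppp1r3c (0.013) and Pygl with Fbp1 (0.035), and with diet means kept for Pygl with Fbp1 (0.129) and Pfkl with Fbp1 (0.149). The labels give no replicate numbers, and the chip is the block that pairs arrays across diets. The dimmer Pfkl probe is near background, and dim probes understate differences.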
